A study of Mus musculus with 24 samples.

Results

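The genes described here are 10 members of the prostaglandin and leukotriene pathway, out of 56691 genes in each deposited table. They were picked for the rise of *Hpgd* in RAW264.7 libraries labelled *Olfml3* knockout, and the other 9 members were then chosen by their function in the same pathway. The 10 genes are *Pla2g4a*, *Ptgs1*, *Ptgs2*, *Ptges*, *Tbxas1*, *Hpgd*, *Ptger2*, *Ptger4*, *Alox5* and *Alox5ap*. Because RAW264.7 knockout against wild type chose them, their differences in that contrast are given as a description, with no test. Counts of members past the threshold in that contrast are description only as well. RNA-seq was run on RAW264.7 cells, a mouse macrophage-like leukemia line, and on bone marrow-derived macrophages (BMDMs), primary macrophages grown in culture from the marrow of 8-week-old male C57BL/6 mice. In each cell type there were 4 groups of 3 libraries, namely wild type (WT, *Olfml3*+/+) and *Olfml3* knockout (KO, *Olfml3*-/-), each with PBS or with lipopolysaccharide (LPS, from the outer membrane of Gram-negative bacteria) at 100 ng/mL for 4 h. The RAW264.7 knockout was a single-cell clone made with CRISPR-Cas9 delivered by lentivirus, so clone and genotype cannot be told apart there. The knockout BMDMs came from a global *Olfml3* knockout line, in which the gene was lost in all cells and not in macrophages alone. Groups were taken from the sample titles, since the genotype tag contradicted the title in 12 of 24 samples. Nothing in the labels says that the 3 libraries of a group came from separate cultures or animals, so p-values measure the spread between these libraries.

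Eicosanoids are lipid mediators made from arachidonic acid, which cytosolic phospholipase A2 (*Pla2g4a*) cuts from membrane phospholipids. The cyclooxygenases COX-1 (*Ptgs1*, constitutive in many tissues) and COX-2 (*Ptgs2*, an immediate early gene of inflammation) turn it into prostaglandin H2, from which terminal synthases such as *Ptges* and *Tbxas1* make prostaglandin E2 (PGE2) and thromboxane A2. 15-hydroxyprostaglandin dehydrogenase (*Hpgd*) starts the inactivation of PGE2, which otherwise acts through receptors such as EP2 (*Ptger2*) and EP4 (*Ptger4*), while 5-lipoxygenase (*Alox5*) and its activating protein FLAP (*Alox5ap*) lead to the leukotrienes. Macrophages are a well-known source of both families, and LPS-stimulated macrophages are a classic setting for the induction of COX-2 and PGE2.

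Libraries held 11638273 to 16478616 counts (RAW264.7) or 17121240 to 22873094 (BMDMs), and levels are given as FPKM, fragments scaled to transcript length and library total, which allows genes to be compared per length. *Olfml3* was lower in knockout BMDMs, at 0.597 ± 0.0611 FPKM (SD, n = 3) in WT and 0.0167 ± 0.0115 in KO with PBS. In RAW264.7 it went against the label, with a highest value of 0.29 FPKM in any wild-type library, 0.65 to 1.19 in the libraries labelled knockout with PBS and 18.33 to 18.93 in those with LPS, and directions for RAW264.7 therefore refer to libraries as labelled. All 7 macrophage markers had a mean of at least 1 FPKM in BMDMs and 6 of 7 in RAW264.7, where *Mertk* was listed at 0. Their summed level was 2910 to 2940 FPKM in RAW264.7 wild type with PBS and 1050 to 1290 in the libraries labelled knockout, and with LPS it was 2730 to 2870 and 829 to 862. In BMDMs the sum was 14700 to 15100 in WT and 16500 to 17700 in KO with PBS, and 11800 to 12100 and 12400 to 12700 with LPS. Among markers of other cells, T and NK cell genes summed to at most 2.72 FPKM in RAW264.7, and in BMDMs to at most 0.13 with PBS but to 3.62 to 12.8 with LPS. In BMDMs 1 of these 7 genes had a mean of at least 1 FPKM, and *Cd3d*, *Cd3e*, *Cd3g* and *Nkg7* were listed at 0. Neutrophil genes reached 8.17 FPKM in BMDMs and 0.73 in RAW264.7 with *Ly6g* at 0 in both, and B cell, mast cell and basophil, dendritic cell, fibroblast and megakaryocyte lists stayed at or below 1.73 FPKM in every library. One library stood apart. Among RAW264.7 labelled knockout with PBS, replicate 1 had an FPKM sum of 356156, near the wild type (357349 to 361580), while replicates 2 and 3 had 296109 and 295256. Its values are pointed out below for the genes where it lay clearly apart from the other 2.

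**Figure D1:**
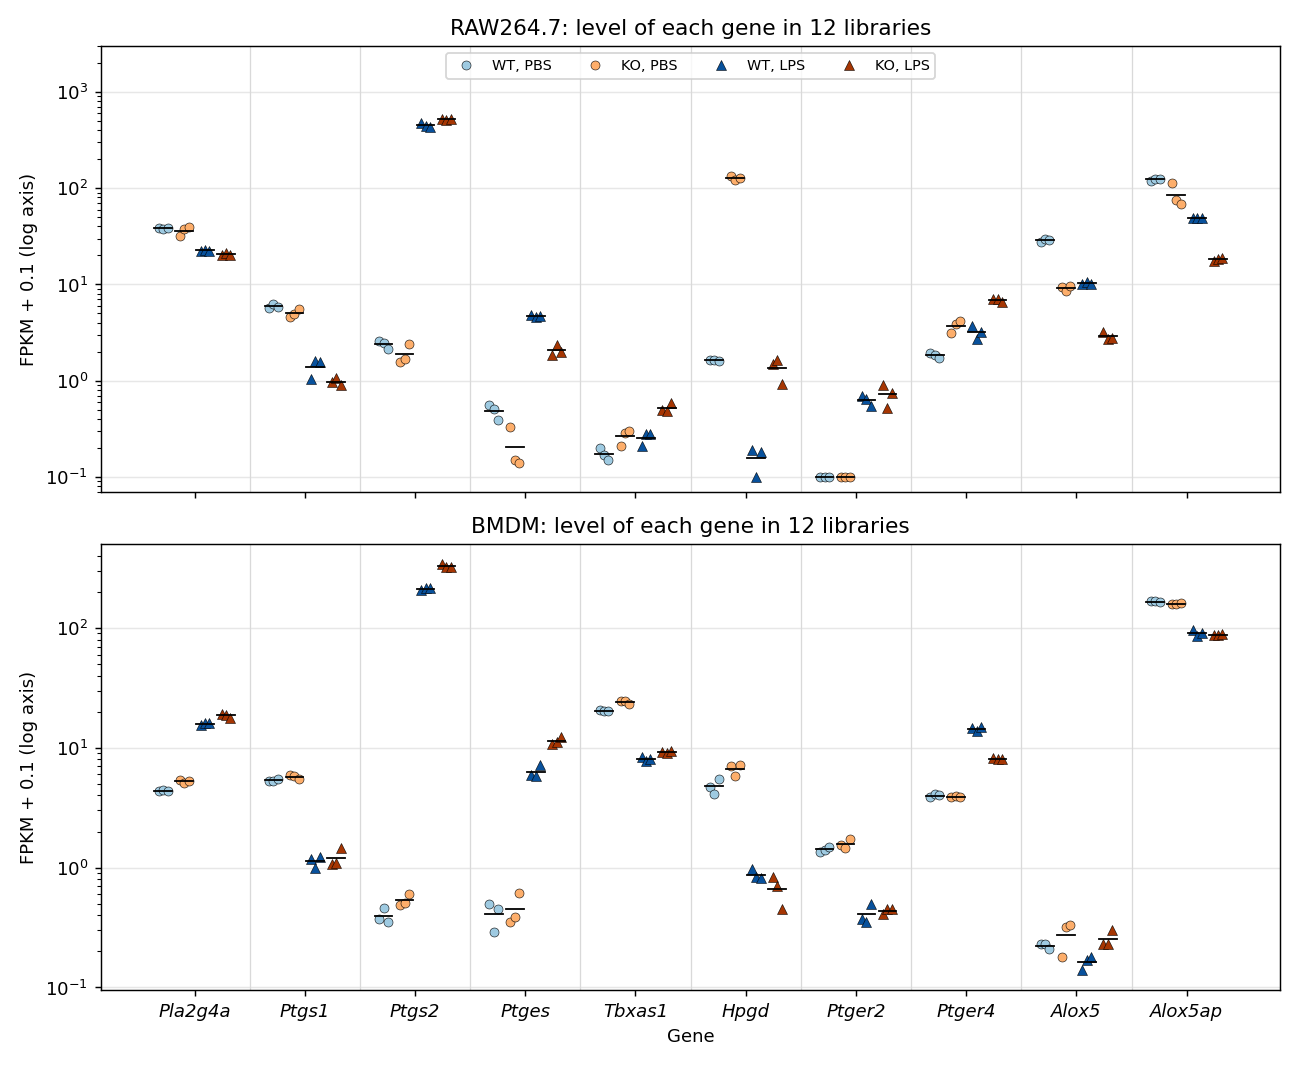
Level of each of the 10 genes in every library, as FPKM + 0.1 on a log axis, for RAW264.7 (top) and BMDMs (bottom). Circles are PBS and triangles LPS libraries, blue is wild type and orange or brown is labelled knockout, and the black line is the mean of 3 libraries. *Hpgd* sits at 121.42 to 132.37 FPKM in RAW264.7 labelled knockout with PBS and at 1.49 to 1.56 in wild type, and *Ptgs2* with LPS is at 207.96 FPKM or more in all 12 libraries.

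*Hpgd*, the enzyme that starts PGE2 inactivation, separated the RAW264.7 libraries as its selection implies. With PBS it measured 1.56, 1.55 and 1.49 FPKM in wild type and 132.37, 121.42 and 127.95 in the libraries labelled knockout, where it was the most abundant of the 10 genes and stood above *Alox5ap* at 85.2. The 2 groups did not overlap, and replicate 1 was as high as replicates 2 and 3. With LPS it measured 0.09, 0 and 0.08 FPKM in wild type, which rests on 4 counts over 3 libraries, and 1.38, 1.53 and 0.82 in the libraries labelled knockout (78 counts). LPS thus left the labelled knockout near the untreated wild type. The difference between labelled knockout and wild type was 6.28 ± 0.26 (SE) on the log2(FPKM + 0.1) scale with PBS and 3.11 ± 0.26 with LPS. The difference between LPS and PBS was -3.44 ± 0.26 in wild type and -6.61 ± 0.26 in the labelled knockout, both given without a test because the PBS libraries chose the gene. In bulk RNA, fewer cells expressing a gene and less RNA per cell cannot be told apart.

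In BMDMs, which took no part in the choice, *Hpgd* was between these extremes. It measured 4.65, 3.99 and 5.36 FPKM in WT with PBS and 6.99, 5.69 and 7.06 in KO, so that every KO library was above every WT library. The difference of 0.49 ± 0.21 log2 (95% confidence interval 0.01 to 0.97) did not pass the test (adjusted p = 0.324). After LPS it measured 0.87, 0.73 and 0.72 FPKM in WT and 0.74, 0.60 and 0.35 in KO, a difference of -0.44 ± 0.21 log2 (-0.92 to 0.04, adjusted p = 0.229), with the groups overlapping. *Hpgd* fell with LPS in both genotypes, by a log2 fold change of -2.44 ± 0.21 in WT (adjusted p = 3.73e-06) and -3.37 ± 0.21 in KO (adjusted p = 3.64e-07). The difference between these LPS responses was -0.93 ± 0.30 (adjusted p = 0.117 by limma). The count models put it past the threshold, at -1.01 by edgeR (adjusted p = 0.0172) and -1.03 by DESeq2 (adjusted p = 0.0149).

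With PBS, 4 genes around *Hpgd* did not share its difference between labelled knockout and wild type. In the tables *Hpgd* (ENSMUSG00000031613) lies on the plus strand at chr8:56747620-56774078, in coordinates of a build that differs from GRCm38. Of the nearest genes with at least 1 FPKM, *Spcs3*, a signal peptidase subunit 1764587 bases before it, was at 79.9 FPKM in RAW264.7 wild type and 80.5 in the labelled knockout with PBS. *Neil3*, a DNA glycosylase further out, was at 8.07 and 8.60. On the other side *Cep44*, which encodes a centrosomal protein, was at 3.99 and 4.56, and *Fbxo8* at 5.25 and 6.16. With LPS *Neil3* was lower, at 2.09 FPKM in RAW264.7 wild type. The predicted gene *Gm45540* overlaps *Hpgd* on the same strand. It had 0 counts in the 3 wild-type libraries, which allows a level of up to 3 counts, and 2, 128 and 96 counts in the labelled knockout with PBS, so that it was higher there as *Hpgd* was. Replicate 1, with 3671 counts on *Hpgd*, therefore had 2 on *Gm45540*, unlike replicates 2 and 3.

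Genes most like *Hpgd* over the 12 RAW264.7 libraries, among 11212 genes with a mean of at least 1 FPKM, included *Il21r*, *Idh3a*, *Cadm1* and *A530010L16Rik*, with Pearson correlations of log2(FPKM + 0.1) from 0.983 to 0.988. The 12 points share 4 groups, so these values describe a ranking of group means. *Il21r*, the interleukin 21 receptor, measured 0.737 FPKM in wild type and 8.01 in the labelled knockout with PBS and was at 0.180 and 0.870 with LPS. *Idh3a*, a subunit of mitochondrial isocitrate dehydrogenase, was also highest in the labelled knockout with PBS and lowest in wild type with LPS, over a much smaller span, from 39.0 to 63.4 FPKM.

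*Ptgs2*, encoding COX-2, had the highest level of the 10 genes in all 4 LPS groups. In RAW264.7 it measured 2.47, 2.38 and 2.04 FPKM in wild type with PBS and 475.92, 442.93 and 433.74 with LPS. The libraries labelled knockout had 1.48, 1.57 and 2.29 FPKM with PBS and 521.71, 509.51 and 528.51 with LPS. In BMDMs it started lower, at 0.27, 0.36 and 0.25 FPKM in WT and 0.39, 0.41 and 0.50 in KO, and reached 207.96, 216.55 and 215.11 in WT and 338.43, 325.18 and 322.56 in KO. No PBS library overlapped an LPS library in either cell type, and in LPS-treated BMDMs all KO libraries were above all WT libraries. The log2 fold change with LPS was 7.56 ± 0.15 in RAW264.7 wild type (adjusted p = 1.08e-09), 8.14 ± 0.15 in the labelled knockout (adjusted p = 4.80e-10), 9.09 ± 0.11 in WT BMDMs (adjusted p = 9.30e-12) and 9.27 ± 0.11 in KO BMDMs (adjusted p = 7.23e-12).

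*Ptgs1*, encoding COX-1, moved the other way. It measured 5.65, 6.22 and 5.74 FPKM in RAW264.7 wild type with PBS and 0.95, 1.5 and 1.45 with LPS, and 4.53, 4.85 and 5.45 against 0.86, 0.98 and 0.80 in the labelled knockout. BMDMs had nearly the same levels, 5.22, 5.21 and 5.43 FPKM in WT with PBS and 1.07, 0.89 and 1.12 with LPS, and 5.84, 5.68 and 5.41 against 0.97, 0.99 and 1.35 in KO. The log2 fold changes with LPS lay between -2.36 and -2.12 in all 4 settings, with SEs of 0.12 to 0.16 and adjusted p of 6.49e-06 or less by limma. Per length, *Ptgs2* made up 28.1 ± 2.13% of the summed FPKM of both cyclooxygenases in RAW264.7 wild type with PBS (SD, n = 3) and 5.26 ± 1.07% in WT BMDMs. With LPS its share was at least 99.5% in every library of both cell types. Genotype had no called effect on *Ptgs1* in BMDMs, with log2 differences of 0.09 in both treatments (95% confidence intervals -0.18 to 0.36 and -0.18 to 0.35).

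*Ptges*, the inducible PGE2 synthase that works with COX-2, rose with *Ptgs2*. In RAW264.7 wild type it went from 0.46, 0.41 and 0.29 FPKM to 4.77, 4.51 and 4.64 with LPS (log2 3.30 ± 0.29, adjusted p = 2.04e-05). In the labelled knockout it went from 0.23, 0.05 and 0.04 to 1.75, 2.26 and 1.89 (log2 3.43 ± 0.29, adjusted p = 1.19e-05), where replicate 1 with PBS was closer to the wild type than replicates 2 and 3. In BMDMs it rose from 0.40, 0.19 and 0.35 FPKM to 5.85, 5.73 and 7.11 in WT (log2 3.97 ± 0.24, adjusted p = 2.61e-07) and from 0.25, 0.29 and 0.52 to 10.60, 11.13 and 12.32 in KO (log2 4.70 ± 0.24, adjusted p = 8.75e-08). After LPS the 2 genotypes did not overlap in either cell type, with the labelled knockout below wild type in RAW264.7 and KO above WT in BMDMs. The predicted gene *Gm13400* overlaps *Ptges* on the same strand and held 58 counts against 1137 on *Ptges* over the 12 RAW264.7 libraries, 16 of them in wild type and 42 in the labelled knockout with LPS.

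Promoters of the genes that rose together with LPS (*Ptgs2*, *Ptges*) and of those that fell (*Ptgs1*, *Hpgd*) are shown to let their sequences be compared. They are RefSeq sequences on GRCm38.p6, each from upstream of the annotated start site to just past it, 5′ to 3′ on the gene's strand. A promoter was found for 9 of the 10 genes. Capitals mark matches on either strand to the C/EBP site TTGCGCAA, to the E-box CACGTG, to the cAMP response element (CRE) core TGACG, to the TATA box motif TATAAA, to the PU.1 core motif GAGGAA or to an NF-kB motif.
Ptgs2 promoter, chr1:150099781-150100080, plus strand: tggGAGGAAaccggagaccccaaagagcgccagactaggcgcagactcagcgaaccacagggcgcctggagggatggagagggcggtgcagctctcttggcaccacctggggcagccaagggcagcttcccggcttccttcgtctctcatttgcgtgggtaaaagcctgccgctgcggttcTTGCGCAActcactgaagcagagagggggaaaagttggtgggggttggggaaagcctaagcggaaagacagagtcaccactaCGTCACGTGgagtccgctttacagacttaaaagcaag
Ptges promoter, chr2:30903248-30903547, minus strand: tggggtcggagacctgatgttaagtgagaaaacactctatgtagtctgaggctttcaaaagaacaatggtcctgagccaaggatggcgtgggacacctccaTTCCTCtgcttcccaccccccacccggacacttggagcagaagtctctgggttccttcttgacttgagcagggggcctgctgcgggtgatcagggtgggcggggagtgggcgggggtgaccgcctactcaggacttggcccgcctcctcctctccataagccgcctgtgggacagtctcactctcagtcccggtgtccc
Ptgs1 promoter, chr2:36230176-36230475, plus strand: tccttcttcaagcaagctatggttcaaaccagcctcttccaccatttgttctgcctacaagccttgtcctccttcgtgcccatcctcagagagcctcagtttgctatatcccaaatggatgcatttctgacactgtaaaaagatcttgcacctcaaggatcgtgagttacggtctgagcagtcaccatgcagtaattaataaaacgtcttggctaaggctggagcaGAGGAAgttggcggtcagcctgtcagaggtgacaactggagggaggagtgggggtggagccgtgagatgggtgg
Hpgd promoter, chr8:56294302-56294601, plus strand: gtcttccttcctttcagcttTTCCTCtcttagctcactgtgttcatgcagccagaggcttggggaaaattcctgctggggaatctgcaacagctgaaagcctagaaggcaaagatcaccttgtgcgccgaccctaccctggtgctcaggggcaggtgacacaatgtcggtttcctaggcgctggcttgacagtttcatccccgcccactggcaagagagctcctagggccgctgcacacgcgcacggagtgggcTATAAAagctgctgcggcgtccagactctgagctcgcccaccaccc
Positions count from the annotated start site, which was not checked against measured transcript starts. In *Ptgs2* the C/EBP match begins 69 bases before that site, a sequence present in 0.183% of 32851 mouse promoters. A CRE core and an E-box, found in 20.8% and 7.15% of promoters, overlap as CGTCACGTG from 14 bases after it. The PU.1 core, a common match found in 28.3% of promoters, occurs once in each of the 4. *Hpgd* has TATAAA (13.6% of promoters) starting at base 5 of the annotated transcript. The NF-kB motif, present in 1.63% of promoters, is in none of the 4 windows. Such matches describe letters only and say nothing about binding.

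The 5 genes most like *Ptgs2* over the 12 BMDM libraries, among 10473 compared, were *Tnf*, *Ccl3*, *Ehd1*, *Nfkb2* and *Clec4e*, with correlations of 0.999 or more over points that form a PBS and an LPS cluster. *Tnf*, a cytokine induced early by LPS, was at 15.9 FPKM in WT and 19.1 in KO with PBS and at 855 and 1160 with LPS. *Ccl3*, a chemokine, was at 99.3 and 114 FPKM with PBS and at 1900 and 2410 with LPS. *Nfkb2*, a subunit of NF-kB, was at 14.3 and 16.4 and then at 127 and 144.

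*Pla2g4a*, the phospholipase upstream of both branches, responded to LPS in opposite directions in the 2 cell types. In RAW264.7 it was abundant with PBS, at 38.78, 37.29 and 38.29 FPKM in wild type and 31.86, 37.19 and 39.62 in the labelled knockout, and lower with LPS, at 22.23, 22.82 and 22.38 and at 20.21, 21.17 and 20.22. The log2 fold changes were -0.76 ± 0.09 (adjusted p = 0.000112) and -0.81 ± 0.09 (adjusted p = 5.85e-05). With median-ratio scaling, which sets the typical gene to no change, they were -0.52 and -0.54 and under 1.5-fold. Replicate 1 of the labelled knockout with PBS, at 31.86 FPKM, was below the other RAW264.7 libraries with PBS. BMDMs had 4.23, 4.37 and 4.23 FPKM in WT with PBS and 15.30, 16.03 and 16.12 with LPS, a rise of 1.86 ± 0.05 log2 (adjusted p = 5.92e-10). KO BMDMs went from 5.25, 5.02 and 5.18 to 19.10, 18.81 and 17.63, a rise of 1.83 ± 0.05 (adjusted p = 7.37e-10). The tables of the 2 cell types were normalized separately, and the difference between cell types was not tested. *Pla2g4a* lies on chromosome 1 beside *Ptgs2*, at chr1:149705369-149837041 on the minus strand, with *Ptgs2* at chr1:149975782-149983978 on the plus strand in the tables' coordinates.

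*Tbxas1*, thromboxane A synthase, was abundant in BMDMs and near the detection limit in RAW264.7. In BMDMs it measured 20.44, 20.07 and 20.06 FPKM in WT with PBS and 8.31, 7.73 and 7.92 with LPS, and 24.57, 24.44 and 23.14 against 9.17, 8.99 and 9.27 in KO. The groups were apart in each pairing, with log2 fold changes with LPS of -1.33 ± 0.05 in WT (adjusted p = 4.04e-09) and -1.39 ± 0.05 in KO (adjusted p = 3.53e-09). Under median-ratio scaling these became -0.53, under 1.5-fold, and -0.70. In RAW264.7 no library was above 0.49 FPKM. The values were 0.10, 0.07 and 0.05 in wild type with PBS and 0.11, 0.18 and 0.18 with LPS, and 0.11, 0.19 and 0.20 against 0.40, 0.39 and 0.49 in the labelled knockout. *Hipk2*, a kinase gene, overlaps *Tbxas1* on the opposite strand, and whether the counting used strand is not given in the sources used here. *Hipk2* measured 2.16, 12.27 and 13.13 FPKM in the labelled knockout with PBS and 1.99 to 2.47 in wild type, so both genes were lower in replicate 1 of the labelled knockout than in replicates 2 and 3. The part of *Hipk2* reads in these low *Tbxas1* values was not tested.

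*Alox5*, the enzyme that starts leukotriene synthesis, was expressed in RAW264.7 and near 0 in BMDMs. It measured 27.54, 29.47 and 28.66 FPKM in wild type with PBS and 10.10, 10.63 and 9.99 with LPS. In the labelled knockout it measured 9.34, 8.46 and 9.43 with PBS and 3.14, 2.61 and 2.68 with LPS, below the wild type in both treatments without overlap (log2 differences of -1.64 ± 0.09 and -1.83 ± 0.09). The labelled knockout with PBS was thus at about the level of wild type after LPS. LPS lowered *Alox5* in wild type by a log2 fold change of -1.47 ± 0.09 (adjusted p = 1.40e-06) and in the labelled knockout by one of -1.66 ± 0.09 (adjusted p = 4.42e-07). In BMDMs the highest value in any library was 0.23 FPKM, and no comparison called it, with a largest log2 difference of 0.63 ± 0.22 between KO and WT after LPS (adjusted p = 0.0877, and 0.0106 without KO PBS replicate 1).

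*Alox5ap*, encoding FLAP, was the most abundant of the 10 genes in BMDMs with PBS. It measured 167.23, 166.75 and 164.32 FPKM in WT and 157.79, 157.64 and 160.12 in KO, and with LPS 95.88, 86.13 and 90.58 in WT and 86.86, 87.23 and 88.93 in KO. The fall with LPS was -0.87 ± 0.05 log2 in WT (adjusted p = 9.71e-08) and -0.85 ± 0.05 in KO (adjusted p = 1.32e-07). It depends on scaling: with median-ratio scaling the values were -0.07 (adjusted p = 0.291) and -0.16 (adjusted p = 0.0177), and edgeR and DESeq2 gave -0.18 to -0.07. In RAW264.7 it measured 119.39, 124.11 and 125.52 FPKM in wild type with PBS and 48.41, 49.45 and 48.67 with LPS (log2 -1.33 ± 0.15, adjusted p = 0.000130). The labelled knockout had 111.88, 75.18 and 68.54 FPKM with PBS, where replicate 1 was nearer to wild type, and 17.37, 18.33 and 18.63 with LPS (log2 -2.19 ± 0.15, adjusted p = 3.18e-06). Both RAW264.7 falls stayed past the threshold with median-ratio scaling, at -1.09 and -1.93.

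*Ptger2*, the EP2 receptor, had 0 counts in all 6 RAW264.7 libraries with PBS. With LPS it was listed at 0.59, 0.54 and 0.45 FPKM in wild type and 0.81, 0.42 and 0.64 in the labelled knockout. Its level with LPS was set against 3 counts over the PBS group (0.0135 and 0.0123 FPKM). It was at least 38.9-fold higher in wild type and at least 50.5-fold higher in the labelled knockout, and these bounds were not tested. On the log2(FPKM + 0.1) scale the change was 2.64 ± 0.18 in wild type and 2.82 ± 0.18 in the labelled knockout. Both are given without a test, because *Ptger2* passed the filter there only through the LPS libraries, which fixed the direction. BMDMs ran the other way, from 1.26, 1.31 and 1.39 FPKM in WT with PBS to 0.27, 0.25 and 0.40 with LPS (log2 -1.82 ± 0.13, adjusted p = 7.26e-07). KO BMDMs went from 1.45, 1.35 and 1.65 to 0.31, 0.35 and 0.35 (log2 -1.86 ± 0.13, adjusted p = 7.30e-07). As for *Pla2g4a*, the PBS and LPS groups did not overlap in either cell type and had the opposite order.

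*Ptger4*, the EP4 receptor, rose with LPS in all 4 settings but by different amounts. In WT BMDMs it went from 3.75, 3.98 and 3.90 FPKM to 14.47, 13.61 and 14.77, a log2 fold change of 1.85 ± 0.05 (adjusted p = 4.83e-10). In KO BMDMs it started at the same level, 3.76, 3.85 and 3.81 FPKM, and reached 8.08, 7.93 and 8.01 (log2 1.05 ± 0.05, adjusted p = 2.49e-08). All 3 LPS-treated KO libraries were below all 3 WT libraries, and the difference was -0.83 ± 0.05 log2 (adjusted p = 1.08e-05), against -0.03 ± 0.05 with PBS (95% confidence interval -0.13 to 0.08). The test of the difference between the 2 LPS responses gave -0.80 ± 0.06 (adjusted p = 0.000178). *Ttc33*, which overlaps *Ptger4* on the opposite strand, measured 8.61 FPKM in WT and 9.74 in KO with LPS, the reverse order. In RAW264.7 *Ptger4* went from 1.85, 1.73 and 1.62 FPKM to 3.61, 2.59 and 3.09 in wild type (log2 0.79 ± 0.14, adjusted p = 0.00185). In the labelled knockout it was higher throughout, from 3.04, 3.82 and 4.04 to 6.91, 7.0 and 6.5 (log2 0.90 ± 0.14, adjusted p = 0.000705). Replicate 1 of the labelled knockout with PBS, at 3.04, was nearer to wild type than replicates 2 and 3.

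Which of the 10 genes responded to LPS was counted with limma, where a call needed a 1.5-fold change and an adjusted p below 0.05. In RAW264.7 wild type 9 of 10 were called, 4 higher (*Ptgs2*, *Ptges*, *Ptger2*, *Ptger4*) and 5 lower (*Hpgd*, *Ptgs1*, *Alox5*, *Alox5ap*, *Pla2g4a*), where 18.3% of 26740 genes tested were called, 5.80% higher and 12.5% lower. *Tbxas1* was at 0.56 ± 0.18 log2, just under 1.5-fold (adjusted p = 0.0465), and passed without WT PBS replicate 1 (0.67) or WT LPS replicate 1 (0.70), with median-ratio scaling (0.69), with a pseudocount of 0.01 (1.01), with edgeR (1.3) and with DESeq2 (1.33). In the labelled knockout all 10 were called, 5 in each direction with *Tbxas1* among the higher, against 22.1% of all genes, 7.45% higher and 14.6% lower. In both RAW264.7 counts *Hpgd* is included although the PBS libraries chose it. In BMDMs 9 of 10 were called in WT and 9 of 10 in KO, each time with 4 higher (*Ptgs2*, *Ptges*, *Pla2g4a*, *Ptger4*) and 5 lower (*Hpgd*, *Ptgs1*, *Ptger2*, *Tbxas1*, *Alox5ap*). The background was 40.4% of 26973 genes in WT, 7.94% higher and 32.5% lower, and 38.9% in KO, 8.02% higher and 30.9% lower. All 10 genes passed the filter of more than 0 FPKM in 1 library in both tables. In RAW264.7 *Ptger2*, with 0 counts in the PBS libraries, passed it only through the LPS libraries. Its direction there was therefore fixed by the filter, and its place among the higher genes is no test. The median log2 fold change of the 10 genes was -0.10 and 0.04 in RAW264.7 wild type and labelled knockout, where all genes had -0.05 and -0.07, and -0.66 and -0.47 in WT and KO BMDMs, where all genes had -0.30 and -0.28. Genes with a mean of at least 1 FPKM in any group had -0.2 and -0.22 in RAW264.7 and -0.76 and -0.65 in BMDMs. Against those genes the medians of the 10 were less negative in both cell types.

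**Figure D2:**
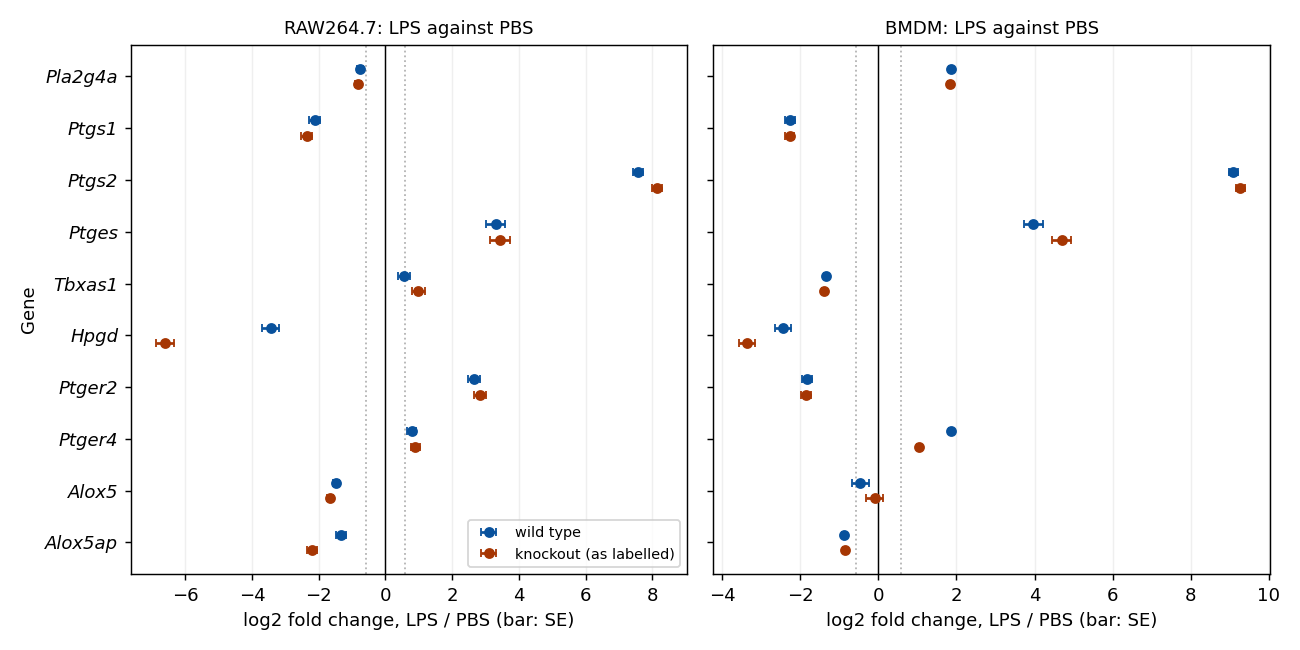
Log2 fold change of each gene with LPS against PBS, in RAW264.7 (left) and BMDMs (right), for wild type (blue) and labelled knockout (brown). Bars are SE and dotted lines mark a 1.5-fold change. *Ptgs2* and *Ptges* are far to the right and *Hpgd* and *Ptgs1* to the left in both panels, while *Pla2g4a* and *Ptger2* lie on opposite sides of 0 in the 2 cell types.

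The scale of the LPS comparison matters for the smaller changes. Median-ratio scaling shifted the log2 fold changes with LPS upward, by a scaling term of 0.80 in WT BMDMs and 0.69 in KO BMDMs, and by 0.24 and 0.27 in RAW264.7 wild type and labelled knockout. Over all genes called in WT BMDMs, 19.7% were higher by FPKM and 47.9% by median-ratio scaling, in KO BMDMs 20.6% and 46.8%, and in RAW264.7 31.7% and 49.7% in wild type and 33.8% and 51.7% in the labelled knockout. *Ptgs2*, *Ptges*, *Ptger4* and *Ptger2* kept direction and call in all 4 settings, as did *Hpgd* and *Ptgs1*. In WT BMDMs the fall of *Hpgd* was then -1.69, that of *Ptgs1* -1.5 and that of *Ptger2* -1.15, and the rise of *Pla2g4a* was 2.66.

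**Figure D3:**
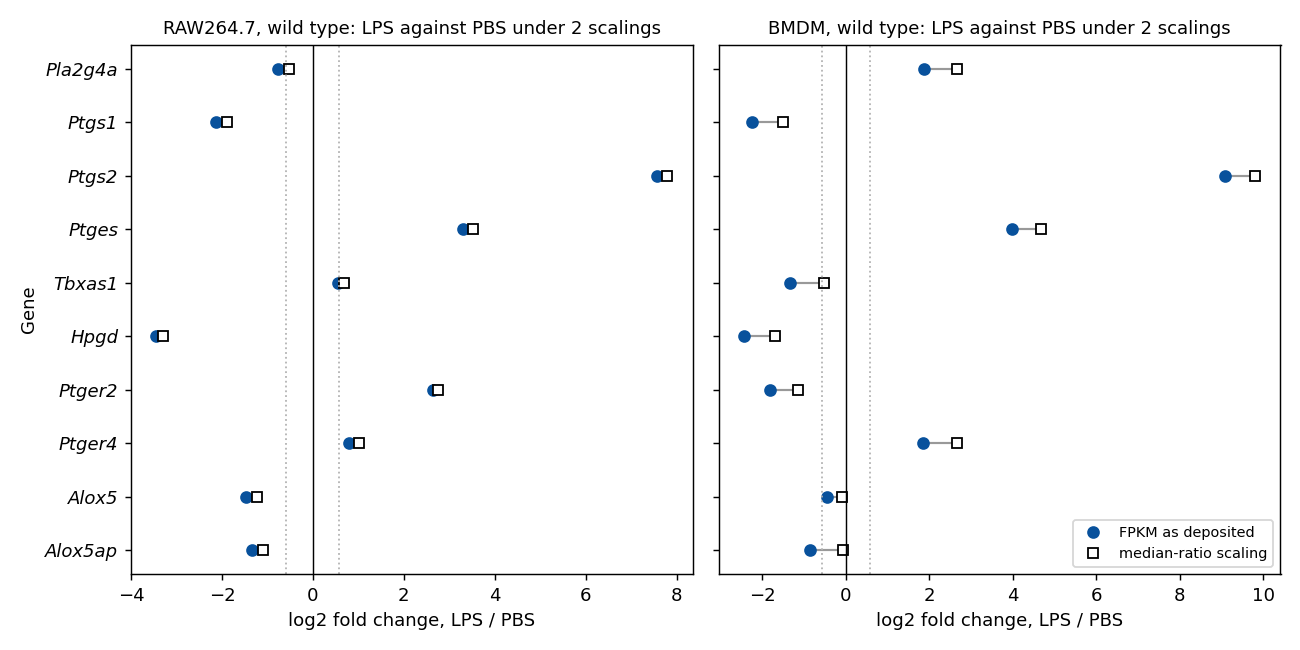
Log2 fold change of each gene with LPS in wild-type RAW264.7 (left) and BMDMs (right), from FPKM as deposited (filled circles) and after median-ratio scaling (open squares). Dotted lines mark a 1.5-fold change. In BMDMs *Alox5ap* moves from -0.87 to -0.07 and *Tbxas1* from -1.33 to -0.53, while *Ptgs2*, *Ptges*, *Pla2g4a* and *Ptger4* stay on the right and *Hpgd*, *Ptgs1* and *Ptger2* on the left.

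Between genotypes, BMDMs with PBS had none of the 10 genes called by limma at this threshold, where 1.81% of genes were called, 0.901% higher and 0.905% lower in KO. *Pla2g4a* (0.26 ± 0.05 log2, adjusted p = 0.0140) and *Tbxas1* (0.25 ± 0.05, adjusted p = 0.0139) had an adjusted p under 0.05 with changes of 1.2-fold and 1.19-fold. With LPS, *Ptger4* was called lower and *Ptgs2* and *Ptges* higher in KO BMDMs, 3 of 10 against 4.76% of all genes, 3.23% higher and 1.53% lower. Of the genes called, 67.9% were higher by FPKM and 43.4% with median-ratio scaling. *Ptgs2* was 0.62 ± 0.11 log2 higher (adjusted p = 0.00302), a 1.54-fold change that came to 0.47 to 0.48 with median-ratio scaling, edgeR and DESeq2, under 1.5-fold. *Ptges* was 0.86 ± 0.24 higher (adjusted p = 0.0379). Its call was lost without any one of the 6 LPS libraries, without WT PBS replicate 3 or without KO PBS replicate 2, with an adjusted p of 0.0513 to 0.111, and with median-ratio scaling (0.71, adjusted p = 0.0793). *Ptger4* passed with each library left out (-0.86 to -0.80) and with median-ratio scaling (-0.98, adjusted p = 5.63e-06).

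In RAW264.7 with PBS the same threshold was passed by 4 of the 10 genes, *Hpgd* and *Ptger4* higher and *Alox5* and *Ptges* lower in the labelled knockout, where 8.55% of all genes were called, 4.79% higher and 3.76% lower. With LPS it was passed by 6, with *Hpgd*, *Ptger4* and *Tbxas1* higher and *Alox5*, *Alox5ap* and *Ptges* lower, where 17.3% were called, 9.73% higher and 7.60% lower. Higher genes made up 56% of calls with PBS and 56.1% with LPS by FPKM, 72.5% and 75.8% with TPM scaling, and 47.3% and 54.6% with median-ratio scaling. The counts of members come from the contrast that chose the genes, so they test nothing about the 10 genes and are printed for completeness. *Ptger4* was 1.02 ± 0.14 log2 higher with PBS and 1.12 ± 0.14 with LPS, and *Ptges* was at -1.34 ± 0.29 and -1.2 ± 0.29. *Ptges* left the PBS count without replicate 2 or 3 of the labelled knockout or replicate 1 or 2 of wild type, and with a pseudocount of 1 (-0.33), and it left the LPS count without replicate 1 of the labelled knockout with LPS and with a pseudocount of 0.01 (-1.24). *Alox5ap* was at -0.56 ± 0.15 with PBS and, without replicate 1 of the labelled knockout, at -0.78. *Ptgs1* and *Pla2g4a* were within 0.49 log2 of the wild type in both treatments by limma (the largest difference was -0.49 ± 0.16 for *Ptgs1* with LPS). *Ptgs1* joined the LPS count with edgeR and DESeq2 (-0.59 for both) and without replicate 1 of wild type with LPS (-0.69). Around the cut of 1.5-fold with PBS, *Tbxas1* was just inside at 1.53-fold but is not among the 4 because its adjusted p missed the limit, and *Alox5ap* was just outside at 1.48-fold.

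**Figure D4:**
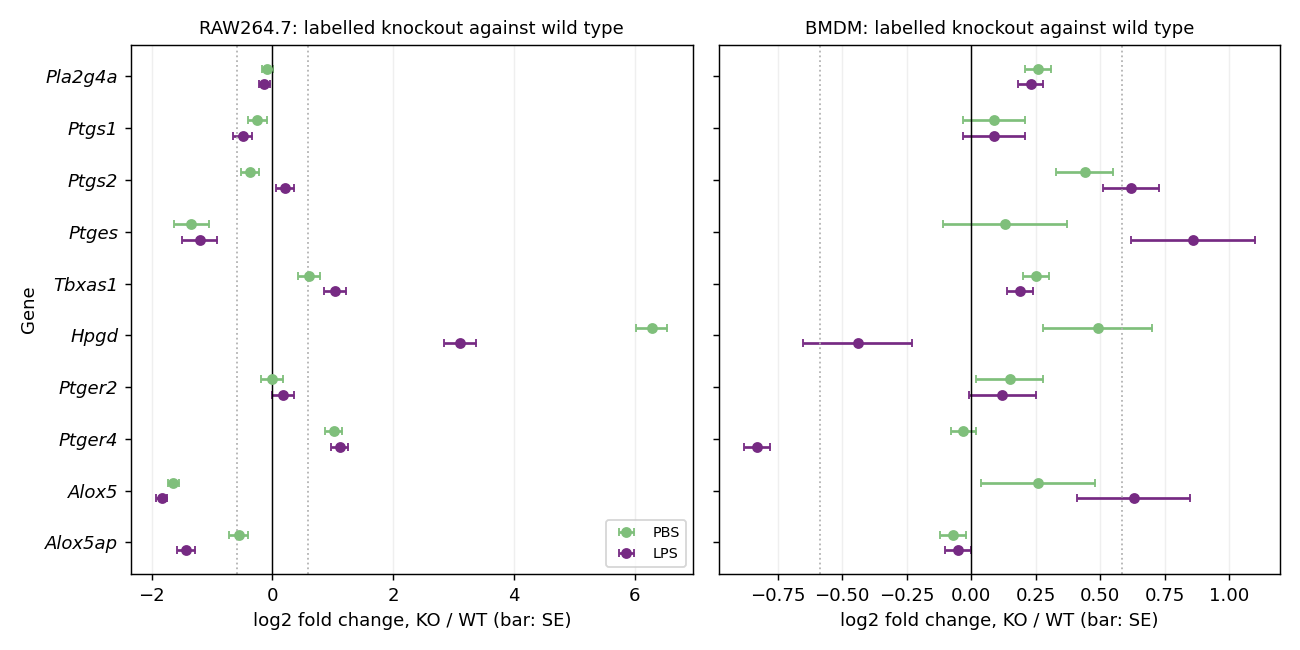
Log2 fold change of each gene in labelled knockout against wild type, in RAW264.7 (left) and BMDMs (right), with PBS (green) and LPS (purple). Bars are SE, dotted lines mark a 1.5-fold change, and the 2 panels have different scales. In RAW264.7 *Hpgd* is at 6.28 and 3.11, and in BMDMs the lowest point is *Ptger4* with LPS at -0.83 and the highest *Ptges* with LPS at 0.86.

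Whether LPS acted differently in the 2 genotypes was tested as an interaction. In BMDMs *Ptger4* alone was called among the 10 (2.91% of all genes called, 1.89% higher and 1.02% lower). Of all genes called, 65% were higher by FPKM and 46.8% with median-ratio scaling. In RAW264.7 the background was 1.95% of genes, 0.905% higher and 1.04% lower. None of the 9 members other than *Hpgd* was called there by limma. *Alox5ap* had -0.86 ± 0.22 log2 (adjusted p = 0.102 by limma), which passed with edgeR (-0.89, adjusted p = 0.0283), DESeq2 (-0.87, adjusted p = 0.00251) and TPM scaling (-0.82, adjusted p = 0.0271), and, without replicate 1 of the labelled knockout with PBS, at -0.65 (adjusted p = 0.00322), and without replicate 3 at -1.0 (adjusted p = 0.0452). *Ptgs2* had 0.58 ± 0.21 (adjusted p = 0.317) and passed with DESeq2 (0.61, adjusted p = 0.0144) and without replicate 3 of the labelled knockout with PBS (0.76, adjusted p = 0.0274). For *Hpgd* the difference of the 2 LPS changes was -3.17 ± 0.37 on the log2(FPKM + 0.1) scale, with the wild-type value after LPS resting on 4 counts, and it came to -1.61 with a pseudocount of 0.01 and -2.01 with edgeR.

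The pathway around these 10 genes was followed with 56 other genes in 6 groups, of which 44 were tested in RAW264.7 and 47 in BMDMs. With LPS most called genes were lower, as they were over all genes tested. In RAW264.7 wild type 2 were higher and 11 lower (all genes 5.80% higher and 12.5% lower), with a median log2 fold change of -0.15 against -0.05 for all genes, and in the labelled knockout 3 were higher and 13 lower (all genes 7.45% and 14.6%, median -0.31 against -0.07). In WT BMDMs 2 were higher and 21 lower (all genes 7.94% and 32.5%, median -0.45 against -0.30), and in KO BMDMs 2 were higher and 19 lower (all genes 8.02% and 30.9%, median -0.44 against -0.28). Over genes with a mean of at least 1 FPKM in any group, the medians were -0.2 and -0.22 in RAW264.7 wild type and labelled knockout. In WT and KO BMDMs they were -0.76 and -0.65, more negative than the pathway medians. With median-ratio scaling the pathway counts became 7 higher and 9 lower in WT BMDMs, 5 and 12 in KO BMDMs, 3 and 6 in RAW264.7 wild type and 3 and 12 in the labelled knockout. Of the genes of phospholipase action and arachidonate release, 1 of 13 tested fell and 1 rose in RAW264.7 wild type, against 6 and 0 of 13 in WT BMDMs. Among the prostanoid synthases, 3 of 8 tested fell and 0 rose in RAW264.7 wild type, against 4 and 0 of 8 in WT BMDMs. Of the genes of prostanoid inactivation and transport, 3 of 6 tested fell and 1 rose in RAW264.7 wild type, against 2 and 0 of 6 in WT BMDMs. Among the prostanoid receptors, 0 of 4 tested fell and 0 rose in RAW264.7 wild type, against 3 and 0 of 5 in WT BMDMs. Of the genes of lipoxygenases and leukotriene synthesis, 3 of 8 tested fell and 0 rose in RAW264.7 wild type, against 3 and 1 of 8 in WT BMDMs. Among the genes of leukotriene breakdown and reception, 1 of 5 tested fell and 0 rose in RAW264.7 wild type, against 3 and 1 of 7 in WT BMDMs. *Hpgds*, hematopoietic prostaglandin D synthase, fell in all 4 settings. It went from 10.4 to 3.05 FPKM in RAW264.7 wild type (log2 -1.74 ± 0.13, adjusted p = 4.83e-06) and from 60.6 to 12.9 in WT BMDMs (log2 -2.22 ± 0.05, adjusted p = 2.78e-10). *Pla2g15*, a lysosomal phospholipase, went from 7.50 to 2.92 FPKM in RAW264.7 wild type (log2 -1.34 ± 0.15, adjusted p = 0.000114) and from 66.6 to 13.0 in WT BMDMs (log2 -2.35 ± 0.05, adjusted p = 1.24e-10). *Pla2g6*, a calcium-independent phospholipase A2, was at 1.09 and 0.130 FPKM in WT BMDMs (log2 -2.37 ± 0.19, adjusted p = 1.61e-06) and at 1.19 and 0.197 in KO (log2 -2.11 ± 0.19, adjusted p = 4.44e-06). *Pla2g5*, a secreted phospholipase A2, rose in RAW264.7 wild type from 5.90 to 15.8 FPKM (log2 1.41 ± 0.10, adjusted p = 5.01e-06). In the labelled knockout the largest falls with LPS were *Ltc4s*, leukotriene C4 synthase, from 3.02 to 0.510 FPKM (log2 -2.38 ± 0.34, adjusted p = 0.000466), and *Mgst2*, a microsomal glutathione S-transferase, from 5.56 to 1.18 (log2 -2.14 ± 0.11, adjusted p = 4.55e-07).

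**Figure D5:**
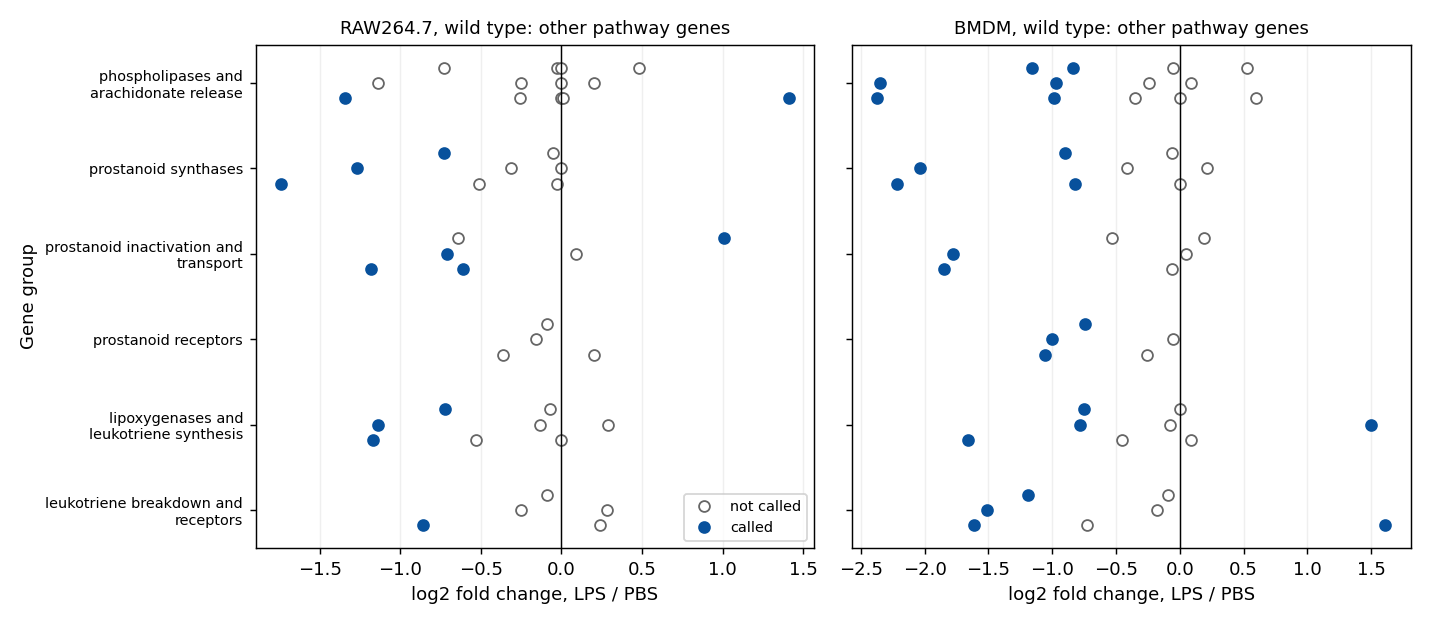
Log2 fold change with LPS in wild type for the other pathway genes, 1 point a gene, in 6 groups, for RAW264.7 (left) and BMDMs (right). Filled points were called by limma, vertical offsets only separate points, and the 2 panels have different scales. Filled points lie mainly left of 0, with 2 to the right in each panel.

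Between genotypes the other pathway genes moved in both directions in RAW264.7. *Hpgd* in this contrast chose the pathway, and the list was made with earlier results known. The p-values of this paragraph are therefore description only. With PBS 3 were higher and 5 lower in the labelled knockout, and with LPS 3 higher and 9 lower, of 44 tested, where 8.55% and 17.3% of all genes were called (medians -0.03 and -0.07, all genes 0.02 and 0). *Ptgir*, the prostacyclin receptor, had the largest change, 10.3 against 1.57 FPKM with PBS (log2 -2.65 ± 0.22, adjusted p = 6.48e-05) and 11.8 against 1.03 with LPS (log2 -3.44 ± 0.22, adjusted p = 9.64e-06). *Ptgr1*, a reductase of prostaglandins and leukotriene B4, was at 6.73 against 2.72 FPKM with PBS (log2 -1.32 ± 0.21, adjusted p = 0.00336) and at 4.30 against 1.16 with LPS (log2 -1.82 ± 0.21, adjusted p = 0.000330). *Hpgds* was higher, at 26 against 10.4 FPKM with PBS (log2 1.30 ± 0.13, adjusted p = 0.000163). *Mgst2* was at 4.18 FPKM in wild type and 1.18 in the labelled knockout with LPS (log2 -1.75 ± 0.11, adjusted p = 1.16e-05).

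In BMDMs, of 47 tested, 1 was lower and none higher in KO with PBS by limma, and 3 were higher and 2 lower with LPS, where 1.81% and 4.76% of all genes were called. *Pla2g7*, the platelet-activating factor acetylhydrolase, was lower in KO in both treatments, at 6.60 FPKM in WT and 2.85 in KO with PBS (log2 -1.19 ± 0.13, adjusted p = 0.000647) and at 5.16 and 2.21 with LPS (log2 -1.19 ± 0.13, adjusted p = 0.000263). *Ptgir* was higher in KO with LPS, at 3.37 against 1.79 FPKM (log2 0.89 ± 0.10, adjusted p = 0.000396), the opposite of its order in RAW264.7. *Ptges2*, another PGE2 synthase, was at 1.62 against 0.910 FPKM (log2 0.77 ± 0.09, adjusted p = 0.000430). Both kept their call with median-ratio scaling, at 0.75 and 0.64 log2.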

How the data were processed

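For each cell type the authors deposited gene counts together with FPKM, covering 56691 genes and 12 libraries (3 per group) of poly(A) RNA. The submitters' notes name mm10. Only 2.76% of 52073 gene IDs shared with GENCODE M21 (GRCm38) had the same coordinates, so the tables' build is not given in the sources used here, nor are aligner and counter. FPKM rebuilt from the deposited counts, length and total came within 1% of the deposited value for 99.9% (RAW264.7, 122116 values) and 99.5% (BMDMs, 123096 values) of entries above 50 counts.

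limma 3.58.1 (R 4.3.3), the tool and thresholds of the study's methods, was fitted to log2(FPKM + 0.1) for 4 group means per cell type over 12 libraries, for genes above 0 FPKM in 1 library, with Benjamini-Hochberg adjustment over all genes. Fold changes on this scale understate those of low genes. Called means an adjusted p under 0.05 and at least 1.5-fold. Alternatives were other pseudocounts, filters on low values, TPM and median-ratio scaling, edgeR 4.0.16 and DESeq2 1.42.0 on counts, the adjusted p alone, a replicate block, and each library left out. The models were tested on simulated data.

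The members, the lists of pathway and marker genes and the rule for named genes were chosen with earlier results of these data known. Named are the 10 members, the 3 called pathway genes with the largest change per comparison at 1 FPKM or more, the 5 genes most like *Hpgd* or *Ptgs2* (1 is not reported here), and neighbours. *Fam213b* was matched as *Prxl2b*, and *Dpep2*, with 2 rows, was left out. Descriptions used Python 3 with promoter sequences from RefSeq. At these totals 0.1 FPKM is a few counts.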

Additional observations from a re-analysis of the deposited data

Results flagged for a closer look

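The LPS response differed between genotypes, by the interaction test of limma, for *Ptger4* in BMDMs (log2 -0.80, adjusted p = 0.000178) among the 10 members. Among the other pathway genes it differed in BMDMs for *Ptges2* (0.67, adjusted p = 0.0160), *Abcc4* (0.62, adjusted p = 0.0325) and *Ptgir* (0.70, adjusted p = 0.0229), none of which was called with median-ratio scaling (0.58, 0.51 and 0.60). *Ptges2* and *Ptgir* were called with edgeR (0.62 for both) and DESeq2 (0.61 for both), and *Abcc4* with neither (0.52 and 0.51). TPM scaling kept all 3. In RAW264.7 it differed for *Mgst2* (-1.01, adjusted p = 0.0128), which edgeR (-1.07) and DESeq2 (-1.05) also called.

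Other differences were between cell types, where every library of one moved opposite to every library of the other, and these were not tested because the tables were normalized separately. With LPS, *Pla2g4a* had log2 fold changes of -0.76 in RAW264.7 and 1.86 in BMDMs in wild type, and -0.81 and 1.83 in knockout as labelled. *Ptger2* had 2.64 and -1.82 in wild type and 2.82 and -1.86 in knockout, where the RAW264.7 values depend on the pseudocount and are no bound. *Tbxas1* had 0.56 and -1.33 in wild type and 0.99 and -1.39 in knockout, at under 0.5 FPKM in RAW264.7.

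Between genotypes after LPS, *Ptger4* was at 1.12 in RAW264.7 and -0.83 in BMDMs, *Ptges* at -1.20 and 0.86, and *Alox5* at -1.83 and 0.63, the last at under 0.25 FPKM in BMDMs. *Pla2g4a* was at -0.13 and 0.23, where TPM scaling shifts the RAW264.7 value by 0.23, past 0. With median-ratio scaling its BMDM value was 0.07 (adjusted p = 0.461 by limma).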

How the results depend on the processing

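Calls among the 10 members with LPS varied little: each of the 4 LPS comparisons kept 7 to 10 calls under every setting that was run. For the interaction in RAW264.7 the count of 1 member is *Hpgd*, which these PBS libraries chose, so it is no test. It became 0 with a pseudocount of 0.01 and 2 with a pseudocount of 1, FPKM of at least 1, TPM or DESeq2, and ranged from 1 to 3 with 1 library left out. In BMDMs the interaction count of 1 became 3 with a pseudocount of 1 and 2 with FPKM of at least 1, edgeR or DESeq2. For KO against WT BMDMs with LPS the count of 3 became 1 with median-ratio scaling and 5 on the adjusted p alone, and with PBS the count of 0 became 2 on the adjusted p alone. The interaction of *Ptges* in RAW264.7, 0.13, turned to -0.60 with a pseudocount of 1, and ranged from -0.09 to 0.53 with 1 library left out (-0.04 without replicate 2 of the labelled knockout with PBS). The cause of these changes was not tested.

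Same-numbered libraries did not deviate together (correlations of -0.06 to 0.08), so no pairing by number was seen. Such correlations cannot show whether same-numbered libraries shared a culture or animal. The fit with a replicate block gave the same counts of members in all 10 comparisons, for example 9 in WT BMDMs with LPS and 4 in RAW264.7 with PBS. Low genes such as *Tbxas1* in RAW264.7 (29 to 144 counts per group) are limited by depth.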
